A study of Mus musculus with 4 samples.

Results

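Genes of the major histocompatibility complex (MHC), the cell surface system that shows peptides to T cells, were followed in RNA from mouse heart ventricles. The members were set by gene name, with earlier results of these data known. All 44 genes of the deposited table whose symbol starts with H2-, the mouse name of the complex, were taken. The 6 genes B2m, Tap1, Tap2, Tapbp, Ciita and Nlrc5 were added. The members are 50 of the 46603 genes in the table. All mice were C57Bl6/J and 8 to 12 weeks old. The groups were P2Y6 KO mice given isoproterenol, P2Y6 KO mice given saline, WT mice given isoproterenol and WT mice given saline. P2Y6 is a receptor for the nucleotide UDP, and its knockout is labelled P2Y6-null, with no detail in the labels of how the allele was made or of any cell type restriction. Isoproterenol activates beta-adrenergic receptors and makes the heart enlarge. It was injected into the peritoneum at 50 mg/kg/day for 7 days. Each group held 1 library, from an unstated number of hearts, so no difference below has a replicate check.

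MHC class I molecules sit on nearly all nucleated cells. A class I heavy chain pairs with beta-2 microglobulin (B2m) and carries peptides cut by the proteasome, which the transporter Tap1-Tap2 moves into the endoplasmic reticulum and tapasin (Tapbp) helps to load, and CD8 T cells read the result. MHC class II molecules, pairs of an alpha and a beta chain, are made mainly by macrophages, dendritic cells and B cells and show peptides from endosomes to CD4 T cells. Their chains are escorted by the invariant chain Cd74, the DM pair removes its last fragment, and the DO pair holds DM back. Ciita switches on class II genes and Nlrc5 class I genes. Neither binds DNA itself: both act through a complex on the X and Y boxes shared by the promoters of both classes, and interferon gamma raises both. In the healthy heart, class II is known mainly from resident macrophages and dendritic cells.

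The promoters are shown because they carry the shared boxes through which both transactivators act, and because they let class II and class I genes be set side by side. RefSeq promoter sequences (GRCm38.p6) were found for 34 of the 50 members and for 17 of the 25 with enough reads to compare. The windows below run from 180 bases before the RefSeq start to 20 bases after it, 5′ to 3′ on the gene's strand. For H2-D1 and H2-DMb1 that start lies well downstream of the gene start in GENCODE, from which the gene positions given here were taken. Capitals mark the Y box core ATTGG (or CCAAT, its reverse), the X2 half-site TGACG, the X1 core AACNGATG, the kappa-B core GGGGATTCC of class I enhancer A and the interferon consensus core AGTTTCACT. H2-Aa and H2-Eb1 are class II surface chains, H2-DMb1 a DM chain, H2-K1 and H2-D1 the classical class I heavy chains, and B2m the class I light chain.
H2-Aa, chr17:34287804-34288003, minus strand: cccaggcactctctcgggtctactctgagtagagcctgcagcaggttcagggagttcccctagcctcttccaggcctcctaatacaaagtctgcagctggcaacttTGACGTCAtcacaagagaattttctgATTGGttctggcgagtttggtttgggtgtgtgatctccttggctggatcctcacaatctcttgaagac
H2-Eb1, chr17:34305687-34305886, plus strand: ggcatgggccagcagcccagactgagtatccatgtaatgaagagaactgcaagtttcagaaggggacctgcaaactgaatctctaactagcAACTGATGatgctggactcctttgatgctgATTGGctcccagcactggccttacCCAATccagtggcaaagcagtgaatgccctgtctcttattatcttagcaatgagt
H2-DMb1, chr17:34153011-34153210, plus strand: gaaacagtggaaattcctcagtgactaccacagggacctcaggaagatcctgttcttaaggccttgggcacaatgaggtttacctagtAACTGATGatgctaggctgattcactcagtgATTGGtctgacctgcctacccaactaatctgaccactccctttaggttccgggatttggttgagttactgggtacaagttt
H2-K1, chr17:34000328-34000527, minus strand: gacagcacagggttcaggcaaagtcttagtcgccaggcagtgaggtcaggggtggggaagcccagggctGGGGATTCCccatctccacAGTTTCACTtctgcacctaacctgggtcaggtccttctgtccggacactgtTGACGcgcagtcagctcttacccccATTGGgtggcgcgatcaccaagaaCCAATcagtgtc
H2-D1, chr17:35262914-35263113, plus strand: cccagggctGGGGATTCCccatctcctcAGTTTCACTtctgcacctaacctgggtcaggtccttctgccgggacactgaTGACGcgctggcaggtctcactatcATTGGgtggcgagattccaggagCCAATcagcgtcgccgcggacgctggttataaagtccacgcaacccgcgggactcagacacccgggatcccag
B2m, chr2:122147507-122147706, plus strand: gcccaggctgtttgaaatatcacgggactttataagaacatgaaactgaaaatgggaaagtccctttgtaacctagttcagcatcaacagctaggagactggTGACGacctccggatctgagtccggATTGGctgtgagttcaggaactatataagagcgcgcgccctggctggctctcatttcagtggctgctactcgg

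Both strands of the whole 300-base promoters, 250 bases before the start and 50 after it, were searched. The motifs were written down with promoters of these genes in view, so the shares are a description. ATTGG was in 17 of the 17 promoters, against 37.4% of 32851 mouse promoters. TGACG was in 9 of 17, against 20.8% of all promoters. The X1 core was in 3 of 17, H2-DMb1, H2-DMb2 and H2-Eb1, against 2.32% of all promoters. The kappa-B core was in 4 of 17, H2-D1, H2-K1, H2-Q6 and H2-Q7, against 0.25% of all promoters. The interferon core was in 6 of 17, namely these 4 with H2-Q4 and H2-T22, against 0.301% of all promoters. In H2-Aa the capitals TGACGTCA are 2 overlapping copies of the X2 half-site, 1 on each strand. A match in a window is no evidence that a factor was bound there in these hearts.

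The libraries held 18771198 reads in KO isoproterenol, 22965087 in KO saline, 20721472 in WT isoproterenol and 25637369 in WT saline. The deposited values are CPM, reads per gene scaled to 1000000 in each library, and returned to whole reads. P2ry6, the targeted gene, read 0.533 CPM in the KO isoproterenol library, 0.566 CPM in KO saline, 5.89 CPM in WT isoproterenol and 5.11 CPM in WT saline, lower in both KO libraries than in both WT libraries. All 7 cardiomyocyte markers were detected, and their sum was 54107 CPM in the KO isoproterenol library, 65658 CPM in KO saline, 62634 CPM in WT isoproterenol and 66549 CPM in WT saline. That sum was lowest in KO isoproterenol. Ratios between libraries were scaled by TMM, which centres them on the bulk of genes, and each carries an exact 95% interval that covers counting error only. A gene was called when its whole interval lay beyond 1.5-fold. Scaling by total reads instead would move the median of all genes by 0.18 (log2) in the KO response to isoproterenol, by -0.08 in the WT response, by 0.21 in the comparison of KO with WT under isoproterenol and by 0.26 in the difference of responses. Directions beyond counting error that turn with that choice are named where they occur.

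Of the 50 members, 16 had no read in any library, 9 had some reads but a mean under 10 over the 4 libraries, and 25 reached a mean of 10 reads and were compared. All but B2m on chromosome 2, Nlrc5 on chromosome 8 and Ciita on chromosome 16 lie on chromosome 17. Among the 25, levels per kilobase of exon spanned a wide range. B2m (chr2:122147686-122153083) was highest, with 570.2 to 723 CPM per kb over the 4 libraries. H2-D1 had 129 to 159 and H2-K1 117 to 150.2 CPM per kb, so their ranges overlapped. The class II surface chains were lower per length: H2-Eb1 had 27.4 to 46.3, H2-Ab1 19.04 to 30.6 and H2-Aa 18.8 to 28.9 CPM per kb. The transactivators were scarce, with 2.25 to 2.84 CPM per kb for Nlrc5 and 0.339 to 0.380 CPM per kb for Ciita. Counting error was thus small for B2m and the classical chains, with at least 7140 reads in each library, and large for H2-Ob and H2-DMb2, with at most 36 reads in any.

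**Figure D1:**
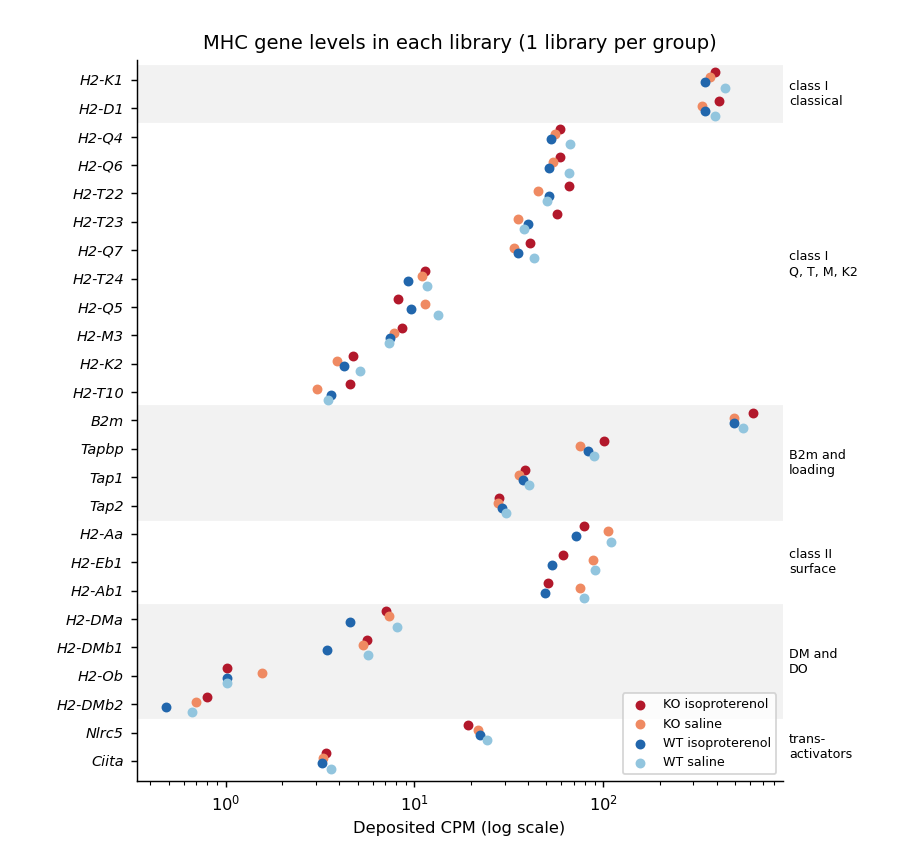
Deposited CPM (log axis) of the 25 members with a mean of at least 10 reads, 1 point per library, grouped by role. Points of a gene mostly lie close together, and the class II surface chains separate into lower isoproterenol points (79.4 and 71.6 CPM for H2-Aa) and higher saline points (106 and 109.8 CPM).

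The class II surface chains read lower under isoproterenol in both genotypes. All 3 compared, H2-Aa, H2-Ab1 and H2-Eb1, read lower in the isoproterenol library than in the saline library of the same genotype, by 1.45-fold to 1.68-fold. H2-Aa encodes the alpha chain of I-A (chr17:34282744-34287823, minus strand, GRCm38) and read 79.4 CPM in the KO isoproterenol library, 106 CPM in KO saline, 71.6 CPM in WT isoproterenol and 109.8 CPM in WT saline. H2-Ab1, its beta chain partner (chr17:34257689-34269419, plus strand), read 50.8 CPM in the KO isoproterenol library, 75.0 CPM in KO saline, 48.9 CPM in WT isoproterenol and 78.6 CPM in WT saline. Neither gene's isoproterenol and saline libraries overlapped: both isoproterenol libraries lay below both saline libraries. H2-Eb1, the beta chain of I-E (chr17:34305867-34316674, plus strand), read 61.4 CPM in the KO isoproterenol library, 88.2 CPM in KO saline, 53.2 CPM in WT isoproterenol and 89.9 CPM in WT saline, with the same separation. C57BL/6 mice are known to lack I-E on the cell surface because their alpha chain gene is broken, and that pseudogene, H2-Ea-ps, had no read in any library.

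As ratios, H2-Aa was 1.52-fold lower (95% interval 1.43 to 1.62) in KO isoproterenol than in KO saline, and 1.45-fold lower (95% interval 1.36 to 1.55) in WT isoproterenol than in WT saline. H2-Ab1 was 1.68-fold lower (95% interval 1.55 to 1.82) in the KO response and 1.52-fold lower (95% interval 1.41 to 1.64) in the WT response. H2-Eb1 was 1.63-fold lower (95% interval 1.52 to 1.75) in the KO response and 1.60-fold lower (95% interval 1.49 to 1.72) in the WT response. The KO and WT intervals overlapped for each of these chains. H2-Ab1 and H2-Eb1 were called lower in KO and were the only members called in the KO response, 2 of 25. Over all 14301 genes compared, 4.22% were called lower and 11.3% in either direction in that response. No member was called in the WT response, where 1.66% of all genes were called. The calls rest on the scaling: with total-read scaling no member was called in KO and H2-Eb1 alone was called in WT, while all 3 chains stayed lower in both genotypes. The difference of responses, KO minus WT on the log2 scale, was -0.07 (95% interval -0.20 to 0.06) for H2-Aa, -0.14 (95% interval -0.30 to 0.02) for H2-Ab1 and -0.03 (95% interval -0.17 to 0.12) for H2-Eb1. All 3 intervals held 0. With total-read scaling these differences turned positive, and the intervals of H2-Aa and H2-Eb1 lay wholly above 0.

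The KO and WT responses share no library, so each can be read beside the other. A member was below no change in both when both intervals lay wholly under 1. That held for 5 members, H2-Aa, H2-Ab1, H2-Eb1, H2-K1 and H2-Q5, of 25. Over all genes it held for 1570 of 14301, or 11.0%. H2-K1 passed in KO by a small margin and turned higher there with total-read scaling, to 0.09 on the log2 scale, so 4 of these members were lower in both responses under either scaling. H2-Q5, a class I gene that GENCODE lists as a polymorphic pseudogene, shares 36.4% of its 50-base stretches with other genes, mostly H2-Q7. Its reads cannot be assigned with certainty. It read 8.15 CPM in the KO isoproterenol library, 11.4 CPM in KO saline, 9.56 CPM in WT isoproterenol and 13.3 CPM in WT saline, so both isoproterenol libraries lay below both saline libraries. It was 1.59-fold lower (95% interval 1.30 to 1.95) in the KO response and 1.31-fold lower (95% interval 1.10 to 1.57) in the WT response, and was called in neither.

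An additive limma fit of genotype and treatment on log2(CPM + 1), with 1 residual degree of freedom, gave the same chains the lowest p-values among members, but called none of them. For isoproterenol against saline over both genotypes, H2-Eb1 differed by -0.63 ± 0.17 (log2, SE; Benjamini-Hochberg adjusted p = 0.0519 from limma). H2-Ab1 differed by -0.61 ± 0.17 (adjusted p = 0.0616 from limma) and H2-Aa by -0.52 ± 0.16 (adjusted p = 0.118 from limma). In all, 0 of 25 members passed an adjusted p of 0.05, while 2.57% of all genes did. Without adjustment, 3 of 25 members had p below 0.05, against 13.0% of all genes. The quasi-likelihood test of edgeR, run on whole reads, also called 0 members, with 4 of 25 below 0.05 before adjustment. Over all genes it called 22 of 14301, and 15.2% were below 0.05 before adjustment. For KO against WT over both treatments, limma called 0 members, against 0.0979% of all genes. Unadjusted, 0 members were below 0.05 in limma, against 4.10% of all genes. In edgeR 0 members and 3 of all 14301 genes were called. Without separate replicates, the error in these fits comes only from the disagreement between the KO and WT responses. Both programs share it across genes of similar level, so a member's p-value rests largely on other genes.

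Cd74, the invariant chain that escorts class II chains, followed them. It read 126 CPM in the KO isoproterenol library, 188 CPM in KO saline, 114 CPM in WT isoproterenol and 198 CPM in WT saline. It was 1.69-fold lower (95% interval 1.61 to 1.78) in the KO response and 1.65-fold lower (95% interval 1.57 to 1.73) in the WT response, and was called in both. With total-read scaling its call in KO was lost. The ratio of the summed class II surface chains (H2-Aa, H2-Ab1, H2-Eb1 and the barely detected H2-Eb2) to Cd74 was 1.52 in the KO isoproterenol library, 1.44 in KO saline, 1.53 in WT isoproterenol and 1.41 in WT saline. That ratio, free of scaling between libraries, spanned a narrow range and was slightly higher in both isoproterenol libraries. Against the classical class I pair H2-K1 plus H2-D1 of the same library, the class II sum was 0.239 in the KO isoproterenol library, 0.385 in KO saline, 0.252 in WT isoproterenol and 0.336 in WT saline. Here both isoproterenol libraries lay below both saline libraries. The ratio of H2-Ab1 to H2-Aa reads was 0.640 in the KO isoproterenol library, 0.705 in KO saline, 0.683 in WT isoproterenol and 0.716 in WT saline, lower in both isoproterenol libraries than in both saline libraries.

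Several genes that prepare class II peptides were higher in KO isoproterenol. Of the 8 genes of the list of the invariant chain and class II peptide supply found in the table, 4 were called higher in the KO response, Ctss, Ctsb, Ifi30 and Lgmn, and 1 lower, Cd74. In the WT response Cd74 alone was called. These counts stand beside 11.3% of all genes called in the KO response and 1.66% in the WT response. The median over the 8 was 0.71 (log2) in KO and 0.09 in WT. Ctss, cathepsin S, which trims the invariant chain, read 85.0 CPM in the KO isoproterenol library, 24.4 CPM in KO saline, 30.7 CPM in WT isoproterenol and 28.0 CPM in WT saline. It was 3.07-fold higher (95% interval 2.78 to 3.38) in the KO response and 1.16-fold higher (95% interval 1.04 to 1.29) in the WT response. Ifi30, a reductase that unfolds proteins in endosomes, was 2.54-fold higher (95% interval 2.06 to 3.16) in the KO response, and 1.008-fold higher (95% interval 0.814 to 1.25) in the WT response.

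Markers of the cells that carry class II did not share one pattern with it. The 14 macrophage markers were all detected and summed to 1123 CPM in the KO isoproterenol library, 489 CPM in KO saline, 520.3 CPM in WT isoproterenol and 549.6 CPM in WT saline. In the KO response 9 of 14 were called higher and none lower, with a median of 1.05 (log2), and in the WT response none was called. Beside this, 11.3% of all genes were called in the KO response and 1.66% in the WT response. By the interval alone, 12 markers were higher and 1 lower in the KO response, against 27.2% higher and 27.6% lower over all genes. Adgre1, the macrophage surface protein F4/80, was 2.53-fold higher (95% interval 2.25 to 2.86) in the KO response and 1.12-fold lower (95% interval 0.984 to 1.28) in the WT response. Ccr2, the receptor of recruited monocytes, was 3.82-fold higher (95% interval 3.09 to 4.78) in the KO response and 1.31-fold higher (95% interval 0.988 to 1.73) in the WT response. Class II surface reads per macrophage marker read were therefore lowest in KO isoproterenol: the ratio was 0.171 in the KO isoproterenol library, 0.551 in KO saline, 0.334 in WT isoproterenol and 0.507 in WT saline. The part that cell numbers play in this was not tested. In bulk tissue, fewer cells of a type and less RNA per cell cannot be told apart.

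The 10 dendritic cell markers summed to 32.1 CPM in the KO isoproterenol library, 29.0 CPM in KO saline, 24.9 CPM in WT isoproterenol and 28.3 CPM in WT saline, mostly from Zbtb46, which endothelial cells also express, and none of the 4 with enough reads was called in either response. The 7 B cell markers summed to 9.70 CPM in the KO isoproterenol library, 8.10 CPM in KO saline, 6.23 CPM in WT isoproterenol and 6.75 CPM in WT saline, more than any other from Blk, and none of 5 was called. The 8 endothelial markers summed to 1046 CPM in the KO isoproterenol library, 1041 CPM in KO saline, 992 CPM in WT isoproterenol and 1089.9 CPM in WT saline, with none called in either response. Of 6 fibroblast markers, 4 were called higher in KO (Dcn, Dpt, Lum and Pdgfrl) and 1 in WT (Lum), beside 11.3% of all genes called in KO and 1.66% in WT. Cardiomyocyte markers had 3 of 7 called lower in KO (Myh6, Myl2 and Tnni3) and 0 of 7 called in WT, beside 4.22% of all genes called lower in KO. With total-read scaling 1 of 7 was called lower in KO. The share of these cell types in the class II difference was not tested.

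**Figure D2:**
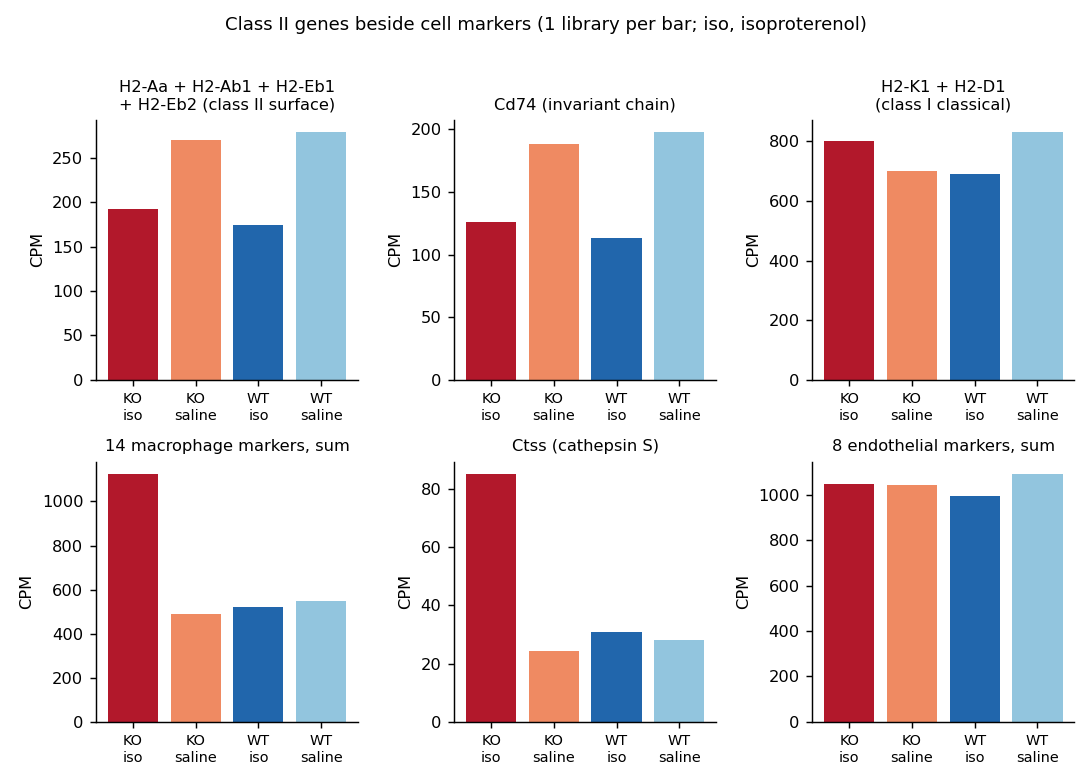
CPM of the class II surface chains, Cd74, the classical class I pair, 14 macrophage markers, Ctss and 8 endothelial markers, 1 bar per library, each axis from 0. Class II and Cd74 bars are lower in both isoproterenol libraries (126 and 114 CPM for Cd74) than in both saline libraries, while macrophage markers and Ctss are high in KO isoproterenol alone (1123 CPM for the markers).

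The DM chains, which edit class II peptides, were expressed at low levels and read lowest in WT isoproterenol. H2-DMa (chr17:34119541-34139101), the DM alpha chain, read 7.03 CPM in the KO isoproterenol library, 7.32 CPM in KO saline, 4.54 CPM in WT isoproterenol and 8.11 CPM in WT saline. H2-DMb1, a DM beta chain, read 5.59 CPM in the KO isoproterenol library, 5.36 CPM in KO saline, 3.43 CPM in WT isoproterenol and 5.69 CPM in WT saline. For both, the other 3 libraries lay close together, and for H2-DMa both isoproterenol libraries lay below both saline libraries. H2-DMa was 1.18-fold lower (95% interval 0.934 to 1.49) in the KO response and 1.69-fold lower (95% interval 1.32 to 2.18) in the WT response. H2-DMb1 was 1.09-fold lower (95% interval 0.831 to 1.42) in the KO response and 1.57-fold lower (95% interval 1.18 to 2.12) in the WT response. Neither was called, and total-read scaling turned the KO direction of H2-DMb1. The difference of responses on the log2 scale was 0.52 (95% interval 0.04 to 0.997) for H2-DMa and 0.53 (95% interval -0.02 to 1.08) for H2-DMb1. H2-DMb2, the second DM beta gene, had 15 reads in KO isoproterenol, 16 in KO saline, 10 in WT isoproterenol and 17 in WT saline. H2-DMb1 and H2-DMb2 share 22.7% and 24.8% of their 50-base stretches with other genes, each mostly with the other. H2-DMa overlaps Brd2 on the opposite strand. The kit keeps strand, but the strand setting of the counting is not given in the sources used here.

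The DO chains were at the edge of detection. H2-Ob, the DO beta chain, had 19 reads in KO isoproterenol, 36 in KO saline, 21 in WT isoproterenol and 26 in WT saline. H2-Oa, the DO alpha chain, had 5 reads in KO isoproterenol, 2 in KO saline, 4 in WT isoproterenol and 3 in WT saline. DO is known mainly from B cells and some dendritic cells. At this depth no difference in either chain could be detected.

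Classical class I genes differed little. H2-K1 (chr17:33996017-34000347, minus strand) read 392 CPM in the KO isoproterenol library, 367 CPM in KO saline, 345 CPM in WT isoproterenol and 441 CPM in WT saline. H2-D1 (chr17:35262730-35267499, plus strand) read 409 CPM in the KO isoproterenol library, 334 CPM in KO saline, 345 CPM in WT isoproterenol and 388 CPM in WT saline. The isoproterenol and saline libraries overlapped for both genes. H2-K1 was 1.06-fold lower (95% interval 1.03 to 1.10) in the KO response, a direction that total-read scaling turned, and 1.21-fold lower (95% interval 1.18 to 1.25) in the WT response. H2-D1 was 1.08-fold higher (95% interval 1.05 to 1.11) in the KO response and 1.06-fold lower (95% interval 1.03 to 1.10) in the WT response. The ratio of H2-K1 to H2-D1 reads was 0.959 in the KO isoproterenol library, 1.10 in KO saline, 0.998 in WT isoproterenol and 1.14 in WT saline, lower in both isoproterenol libraries than in both saline libraries. The 2 genes share 9.63% and 12.8% of their 50-base stretches with other genes, mostly of the complex.

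Of the 29 class I genes of the Q, T, M and K2 loci, pseudogenes among them, 16 had reads and 10 were compared. Among those compared, GENCODE lists H2-K2, H2-Q5 and H2-T10 as pseudogenes of some kind. H2-T23, which encodes Qa-1, the ligand of the inhibitory NK receptor CD94-NKG2A, read 57.0 CPM in the KO isoproterenol library, 35.4 CPM in KO saline, 40.0 CPM in WT isoproterenol and 38.0 CPM in WT saline. It was 1.42-fold higher (95% interval 1.29 to 1.55) in the KO response, the highest ratio of any member compared, and 1.11-fold higher (95% interval 1.011 to 1.22) in the WT response. H2-T22, a ligand of some gamma-delta T cells, read 65.6 CPM in the KO isoproterenol library, 44.9 CPM in KO saline, 51.5 CPM in WT isoproterenol and 50.0 CPM in WT saline. It was 1.29-fold higher (95% interval 1.18 to 1.40) in the KO response and 1.09-fold higher (95% interval 1.002 to 1.18) in the WT response. For both genes the KO isoproterenol library was the high one and the other 3 lay together. Both overlap the antisense gene A930015D03Rik. H2-T22 shares 34.5% of its 50-base stretches with other genes, mostly H2-T10, and H2-T23 shares 13.6%, so the assignment of H2-T22 reads is uncertain. H2-Q4, H2-Q6 and H2-Q7, of the Q region, were lower in WT isoproterenol than in WT saline by 1.19, 1.21 and 1.15-fold, and their KO intervals held no change. H2-Q6 and H2-Q7 share 32.0% and 26.4% of their 50-base stretches with other genes, and H2-Q4 21.8%, so their reads are uncertain too. H2-M3, which shows formylated bacterial peptides, read 8.58 CPM in the KO isoproterenol library, 7.79 CPM in KO saline, 7.38 CPM in WT isoproterenol and 7.37 CPM in WT saline, with no separation of groups.

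B2m (chr2:122147686-122153083, plus strand), the light chain of every class I molecule, read 622 CPM in the KO isoproterenol library, 490.4 CPM in KO saline, 494 CPM in WT isoproterenol and 548 CPM in WT saline. The KO isoproterenol library was highest, and WT saline came next. B2m was 1.12-fold higher (95% interval 1.09 to 1.15) in the KO response and 1.05-fold lower (95% interval 1.02 to 1.08) in the WT response. Tapbp, tapasin, read 101.3 CPM in the KO isoproterenol library, 75.5 CPM in KO saline, 83.4 CPM in WT isoproterenol and 88.7 CPM in WT saline, and was 1.18-fold higher (95% interval 1.11 to 1.26) in the KO response and 1.006-fold lower (95% interval 0.945 to 1.07) in the WT response. Tap1 read 38.3 CPM in the KO isoproterenol library, 35.7 CPM in KO saline, 37.4 CPM in WT isoproterenol and 40.5 CPM in WT saline. Tap2 read 28.2 CPM in the KO isoproterenol library, 27.8 CPM in KO saline, 29.0 CPM in WT isoproterenol and 30.5 CPM in WT saline. All 4 intervals of the Tap1 and Tap2 responses held no change. B2m overlaps Patl2 on the opposite strand, and Tapbp overlaps Zbtb22 on the same strand over 3422 bases, so the counts of both could be affected. Of the 12 further genes of class I peptide supply and loading, 1 was called in the KO response, Pdia3, and none in WT, where total-read scaling called 1 lower. These counts stand beside 11.3% of all genes called in KO and 1.66% in WT. By the interval alone, 3 of the 12 were higher and 7 lower in KO, against 27.2% higher and 27.6% lower over all genes. Their median was -0.21 (log2) in KO, or -0.03 with total-read scaling, and -0.04 in WT. Pdia3, the oxidoreductase of the loading complex, read 259 CPM in the KO isoproterenol library, 139 CPM in KO saline, 137 CPM in WT isoproterenol and 139 CPM in WT saline. The immunoproteasome subunit Psmb8 was 1.199-fold higher in the KO response and 1.07-fold lower in the WT response, and Psmb9 was 1.14-fold lower in the KO response and 1.10-fold higher in the WT response, none of them called.

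**Figure D3:**
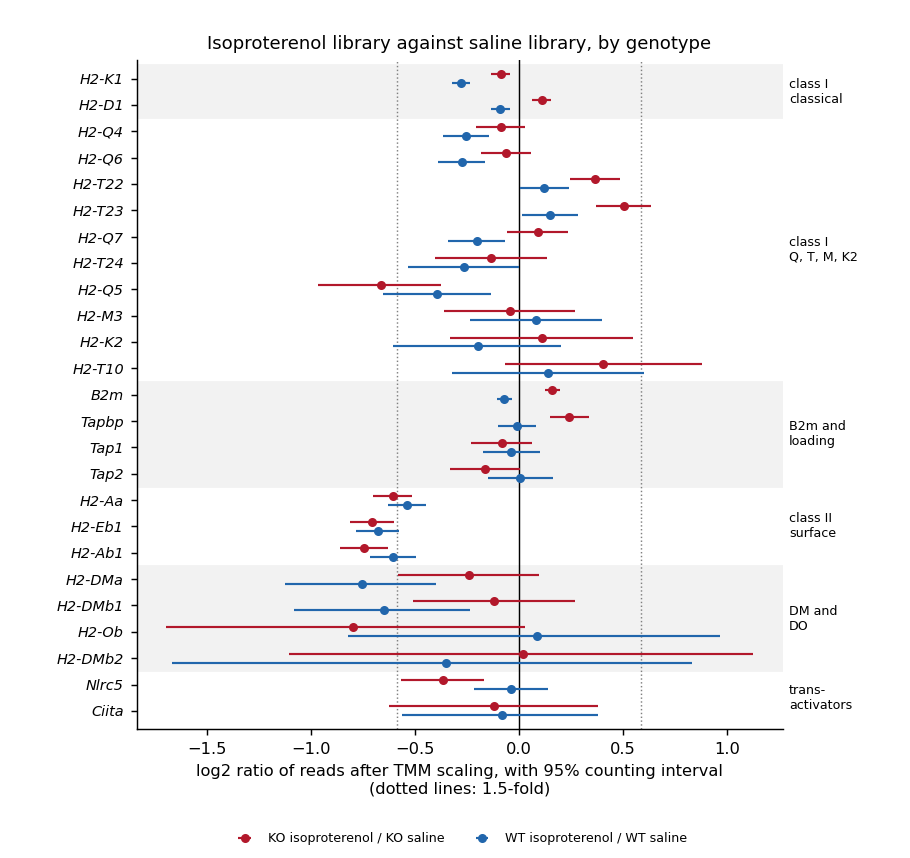
Log2 ratio of the isoproterenol to the saline library for the 25 members, KO above WT in each pair, with 95% counting intervals and dotted lines at 1.5-fold. The class II surface chains lie left of no change in both genotypes (H2-Eb1 at -0.70 in KO and -0.68 in WT), and H2-T23 lies farthest to the right in KO (0.50).

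The class II transactivator read at a similar level in all 4 libraries, and the class I transactivator was lowest in KO isoproterenol. Ciita read 3.41 CPM in the KO isoproterenol library, 3.27 CPM in KO saline, 3.23 CPM in WT isoproterenol and 3.63 CPM in WT saline, between 64 and 93 reads a library. It was 1.09-fold lower (95% interval 0.768 to 1.54) in the KO response and 1.06-fold lower (95% interval 0.767 to 1.48) in the WT response, so a difference of the size seen in the class II chains lay near or beyond the edge of each interval. Total-read scaling turned its KO direction. Ciita overlaps Dexi on the opposite strand. Nlrc5 read 19.1 CPM in the KO isoproterenol library, 21.7 CPM in KO saline, 22.2 CPM in WT isoproterenol and 24.1 CPM in WT saline. It was 1.29-fold lower (95% interval 1.12 to 1.48) in the KO response and 1.03-fold lower (95% interval 0.909 to 1.16) in the WT response. In deposited CPM, B2m and H2-D1, class I genes, were highest in the library where Nlrc5 was lowest. For H2-D1 that rests on the scaling: with TMM it was highest in WT saline instead. None of the 16 further regulators of MHC transcription was called in either response, beside 11.3% of all genes called in KO and 1.66% in WT. Their medians were -0.02 (log2) in KO and -0.13 in WT, and total-read scaling called 2 higher in KO. Rfx5, which binds the X box, was 1.16-fold higher (95% interval 0.897 to 1.501) in the KO response and 1.24-fold lower (95% interval 0.966 to 1.62) in the WT response. Irf1 was 1.14-fold lower in the KO response and 1.07-fold lower in the WT response.

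Counting each interval against no change, without the 1.5-fold margin, 5 members were higher and 6 lower in the KO response. Over all genes, 27.2% were higher and 27.6% lower on that measure. The 5 higher were H2-D1, H2-T22, H2-T23, B2m and Tapbp. The 6 lower were H2-Aa, H2-Ab1, H2-Eb1, H2-K1, H2-Q5 and Nlrc5. In the WT response 2 members were higher, H2-T22 and H2-T23, and 12 lower, against 15.3% higher and 16.1% lower over all genes. The 12 were the 3 class II surface chains, H2-DMa, H2-DMb1, H2-K1, H2-D1, H2-Q4, H2-Q5, H2-Q6, H2-Q7 and B2m. The median of the 25 was -0.09 (log2) in the KO response and -0.20 in the WT response, while TMM places the median of all genes near 0. Highly expressed genes have narrow intervals and pass this measure more readily, and B2m, H2-K1 and H2-D1 are among them. Total-read scaling moves the log2 ratios of the KO response up by 0.18, more than the size of the KO median, -0.09. The sign of that median and the split of 5 higher and 6 lower therefore rest on TMM. H2-K1, among the 6 lower, turned higher with total-read scaling. In the WT response that scaling moves ratios by -0.08, so the median stays below 0.

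Under saline, MHC genes of KO and WT hearts were close. No member was called in KO saline against WT saline, where 0.489% of all genes were called. By the interval alone, 7 members were lower in KO saline and 0 higher, against 10.2% lower and 11.2% higher over all genes. The 7 were class I genes or their partners: H2-K1, H2-D1, H2-Q4, H2-Q6, H2-Q7, B2m and Tapbp. H2-K1 was 1.16-fold lower (95% interval 1.13 to 1.19) in KO saline than in WT saline, H2-D1 was 1.12-fold lower (95% interval 1.09 to 1.16), and H2-Q7 was 1.23-fold lower (95% interval 1.12 to 1.35). B2m was 1.08-fold lower (95% interval 1.05 to 1.11). Class II surface chains differed little: H2-Aa was 1.003-fold higher (95% interval 0.9497 to 1.06), H2-Ab1 was 1.012-fold lower (95% interval 0.949 to 1.08) and H2-Eb1 was 1.015-fold higher (95% interval 0.956 to 1.08). These 3 intervals held no change, and total-read scaling put all 3 slightly lower in KO saline. The median of the 25 members was -0.10 (log2). With total-read scaling all 7 stayed lower in KO saline.

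Under isoproterenol, no member was called in KO against WT, where 6.0% of all genes were called. By the interval alone, 5 members were higher in KO isoproterenol and 5 lower, against 22.8% higher and 22.2% lower over all genes. The 5 higher were H2-T22, H2-T23, B2m, H2-DMa and H2-DMb1. The 5 lower were H2-Q5, H2-Ab1, Tap1, Tap2 and Nlrc5. H2-T23 was 1.23-fold higher (95% interval 1.12 to 1.35) in KO isoproterenol than in WT isoproterenol, and H2-DMb1 was 1.41-fold higher (95% interval 1.03 to 1.93). Nlrc5 was 1.35-fold lower (95% interval 1.17 to 1.55), and Tap2 was 1.19-fold lower (95% interval 1.06 to 1.34). H2-Aa was 1.04-fold lower (95% interval 0.972 to 1.12), H2-Ab1 was 1.12-fold lower (95% interval 1.02 to 1.22) and H2-Eb1 was 1.003-fold lower (95% interval 0.923 to 1.09). With total-read scaling these 3 chains and Tap1 turned slightly higher in KO isoproterenol, and so did H2-K1, H2-Q4, H2-Q6 and H2-Q7, among others. That scaling moves every ratio of this comparison up by 0.21 (log2), so the even split of 5 and 5 rests on TMM. The summed reads of H2-K1 and H2-D1 were 1.002-fold higher in KO isoproterenol with TMM and 1.16-fold higher with total-read scaling. The macrophage marker sum was 1.86-fold higher (95% interval 1.82 to 1.91) in KO isoproterenol, with 9 of 14 markers called higher, and its part in the class II values was not tested.

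**Figure D4:**
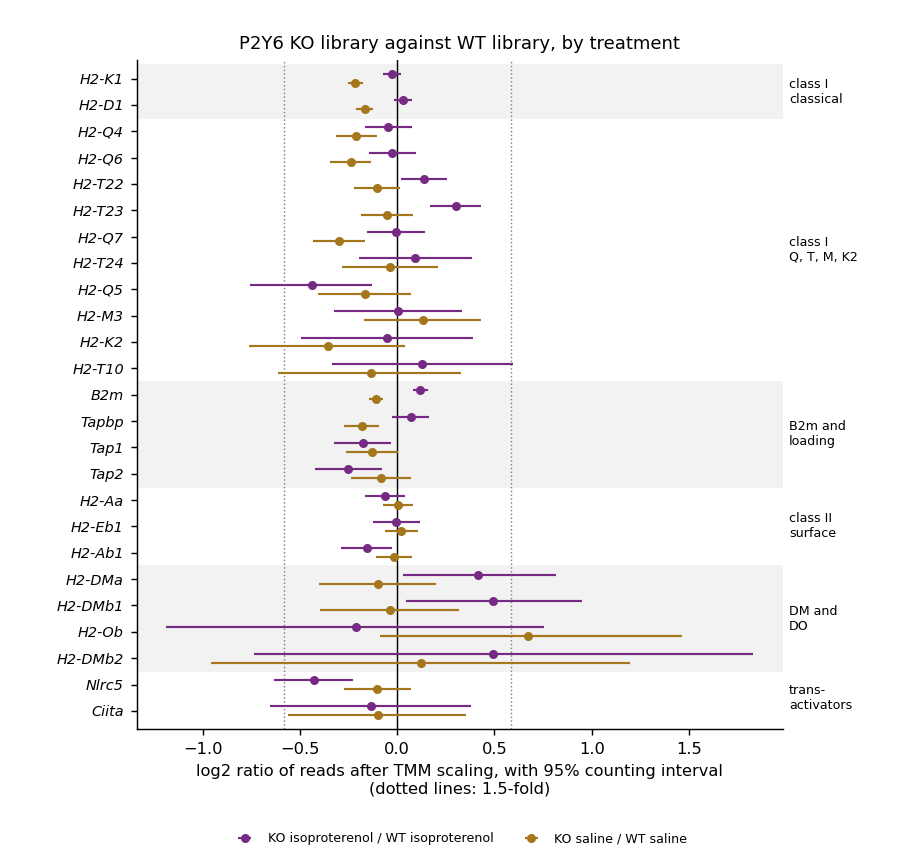
Log2 ratio of the KO to the WT library for the 25 members under isoproterenol (upper point) and saline (lower point), with 95% counting intervals and dotted lines at 1.5-fold. The class II surface chains lie near no change in both (H2-Ab1 at -0.16 under isoproterenol and -0.02 under saline), and H2-K1 lies at -0.03 under isoproterenol and -0.21 under saline.

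The response to isoproterenol in KO minus that in WT was called for no member, against 5.57% of all genes. Its interval lay above 0 for 10 members and below 0 for 1, against 18.9% above and 20.4% below over all genes, and the median of the 25 was 0.19 (log2). The 10 were H2-K1, H2-D1, H2-Q4, H2-Q6, H2-Q7, H2-T22, H2-T23, B2m, Tapbp and H2-DMa. The difference was 0.35 (95% interval 0.16 to 0.54) for H2-T23, 0.23 (95% interval 0.18 to 0.28) for B2m and 0.19 (95% interval 0.13 to 0.25) for H2-K1. Nlrc5 was the 1 below, at -0.33 (95% interval -0.59 to -0.07). No surface class II chain was among the 11. That split rests on the scaling. With total-read scaling, which moves these differences by 0.26, the intervals of H2-Aa and H2-Eb1 lay above 0 and that of Nlrc5 held 0. The design has no error term for this difference, so its intervals cover counting error only.

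The other members were barely or not detected. The 9 with a mean under 10 reads were H2-Bl, H2-M2, H2-M5, H2-M6-ps, H2-M9, H2-Q10, H2-Oa, H2-Eb2 and H2-Ke6, with 0 to 9 reads in any library. H2-Q10 is known as a secreted class I chain made in the liver, and it had 4 reads in KO isoproterenol, 2 in KO saline, 7 in WT isoproterenol and 4 in WT saline. H2-Ke6 lies in the complex but encodes a dehydrogenase and no MHC chain, and 70.5% of its 50-base stretches occur in another annotated gene. The 16 with no read were H2-M1, H2-M11, H2-M10.1 to H2-M10.6 with the pseudogene H2-M10.5-ps1, H2-Q1, H2-Q2, H2-Q3, H2-T3, H2-Pa, H2-Pb and H2-Ea-ps. The H2-M10 genes are known from the vomeronasal organ and H2-T3 from the thymus and gut. A count of 0 allows up to 3 reads, or 0.160 CPM in KO isoproterenol, 0.131 in KO saline, 0.145 in WT isoproterenol and 0.117 in WT saline.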

How the data were processed

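The authors deposited 1 table of CPM (reads per gene scaled to 1000000) with 46603 Ensembl genes. Libraries came from a stranded mRNA kit, per the labels' protocols, and HTSeq and GRCm38.p4 (mm10) are named in the submitters' processing notes. No source used here gives the aligner, annotation release or strand setting. Columns named by genotype alone were taken as saline. Every value was a whole multiple of 1 read within 0.01 reads (100% of values), so the deposited CPM were returned to reads.

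Read ratios used TMM factors (edgeR 4.0.16; 1.096 in KO isoproterenol, 0.966 in KO saline, 0.946 in WT isoproterenol, 0.999 in WT saline), 0.5 added reads and exact conditional (Clopper-Pearson) 95% intervals. They cover counting error only, since reads were not tagged as single molecules. Genes averaging 10 reads or more over the libraries, 14301 in all, were compared. The additive fit was limma 3.58.1 on log2(CPM + 1), with each gene's variance drawn toward a trend over all genes compared, Benjamini-Hochberg adjusted. Its p-values measure only the spread between these 4 libraries. Ratios and fits were run on simulated counts, with counting error alone for the ratios and a fixed added spread for the fits. Such runs check the code and say nothing about variation between hearts. Alternatives were other scalings (DESeq2 1.42.0 size factors among them), read filters, fold margins, a pseudocount of 0.25 CPM and edgeR. Positions came from GENCODE M21 by Ensembl ID for all 50 members, and promoters from RefSeq. Shared 50-base stretches were counted over annotated transcripts of that release. Every member may be named, and of the lists of related genes and cell markers, called genes and a few regulators and cell markers. The members and lists were chosen with earlier results of these data known. A few genes of the lists are not reported here.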

Additional observations from a re-analysis of the deposited data

Results flagged for a closer look

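B2m and H2-D1, the class I light chain and a classical heavy chain, moved in opposite directions in the KO and WT libraries. B2m had its whole counting interval above no change in the KO response to isoproterenol and below it in the WT response, and the responses differed by 0.23 (log2, KO minus WT). H2-D1 did the same, with a difference of 0.20 (log2, KO minus WT). Both directions stayed with total-read scaling. The differences between KO and WT were not tested, since the design has 1 library per group, and neither reached 1.5-fold. The cardiomyocyte marker sum was lowest and the macrophage marker sum highest in the KO isoproterenol library, and their part in these differences was not tested.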

How the results depend on the processing

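With total-read scaling, members called lower numbered 0 in the KO response (0 in all), where log2 ratios shifted by 0.18, and 1 in the WT response (H2-Eb1; 1 in all), where they shifted by -0.08. H2-K1 reversed in the KO response, to a log2 ratio of 0.094. With a 2-fold margin, 0 members were called in KO (0 lower). With no margin, 11 members were called in the KO response (5 higher, 6 lower), 14 in the WT response (2 higher, 12 lower), 7 in KO against WT under saline (7 lower), 10 under isoproterenol (5 higher, 5 lower) and 11 in the difference of responses (10 higher, 1 lower). In the additive limma fit, a pseudocount of 0.25 CPM called 2 members by treatment (H2-Eb1 and H2-Ab1) and no read filter called 3 (with H2-Aa), and the cause was not tested. Calls over all genes rose too, to 502 of 14301 with that pseudocount and 965 of 24267 with no read filter, against 368 of 14301 in the reported fit. CPM scaled by TMM and edgeR each called 0, and every setting run called 0 by genotype. DESeq2 size factors, a mean of at least 50 reads and no read filter left all ratio counts as they were. Of 125 member values, 124 kept direction and side of 1.5-fold with DESeq2 size factors and 92 with total-read scaling. Sign changed in 1 value near 0 (H2-M3) with DESeq2 size factors, and with total-read scaling in 29 values besides H2-K1, each with an interval that held no change under at least one of the scalings. No paired analysis was possible because each group has 1 library and no replicate numbers link the groups. The additive fit does compare treatments within genotype. Depth limits H2-Ob, H2-DMb2 and the 9 members under 10 reads.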

Other observations

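Some genes known to rise with interferon gamma were lower in the KO isoproterenol library. Of 19 genes of that pathway with enough reads, 7 were called lower in KO isoproterenol against KO saline and 1 higher, with a median of -0.32 (log2), and none was called in WT isoproterenol against WT saline, with a median of -0.16. Over all genes, 4.22% were called lower in the KO response. With total-read scaling 5 were called lower in KO, the medians were -0.13 in KO and -0.24 in WT, and the median difference of responses (KO minus WT), -0.19 with TMM, turned to 0.07. Iigp1, an immunity-related GTPase, read 115 CPM in the KO isoproterenol library, 239 CPM in KO saline, 248 CPM in WT isoproterenol and 274 CPM in WT saline. It was 2.36-fold lower (95% interval 2.24 to 2.48) in the KO response and 1.04-fold lower (95% interval 1.005 to 1.08) in the WT response. The other 6 were Irgm1, Irgm2, Igtp, Gbp6, Cd274 and Ido1, of which the first 4 belong to families of GTPases that act against pathogens and Cd274 encodes the T cell inhibitor PD-L1. Cxcl10, a chemokine for T cells, was 3.12-fold higher (95% interval 2.03 to 5.04) in the KO response and 1.21-fold lower (95% interval 0.679 to 2.26) in the WT response. Ifng itself had 1 read in KO isoproterenol, 0 in KO saline, 2 in WT isoproterenol and 1 in WT saline, and its receptor chain Ifngr1 was 1.26-fold higher in the KO response and 1.14-fold higher in the WT response.

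Receptors and partners that meet MHC molecules were low. Of 10 costimulatory and MHC-binding receptor genes with enough reads, 2 were called higher in the KO response, Cd80 and Lilrb4a, and none in the WT response, while total-read scaling called 4 higher in KO. The counts in this paragraph stand beside 11.3% of all genes called in the KO response, with 4.22% called lower, and 1.66% called in the WT response. Cd80, which costimulates T cells beside class II, read 2.88 CPM in the KO isoproterenol library, 0.871 CPM in KO saline, 0.917 CPM in WT isoproterenol and 0.351 CPM in WT saline. Of 7 class I-like genes outside H2 with enough reads, none was called in either response (1 higher in KO with total-read scaling), and their medians were 0.24 (log2) in KO and 0.31 in WT. T cell markers summed to 5.59 CPM in the KO isoproterenol library, 4.22 CPM in KO saline, 3.38 CPM in WT isoproterenol and 3.98 CPM in WT saline, with 1 of 5 called lower in KO (Cd28) and none in WT, and NK cell markers to 3.04 CPM in the KO isoproterenol library, 2.05 CPM in KO saline, 1.98 CPM in WT isoproterenol and 2.11 CPM in WT saline, with none of 2 called. With total-read scaling no T cell marker was called lower in KO and 1 was called higher.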
